A study of Homo sapiens with 22 samples.

Results

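This report describes the insulin-like growth factor (IGF) axis and its binding proteins in TC-32 cells, an established Ewing sarcoma line. The 10 genes were taken by name: the ligands IGF1 and IGF2, the receptor IGF1R, the adaptor IRS1, the binding proteins IGFBP2, IGFBP3, IGFBP4, IGFBP5 and IGFBP6, and the RNA-binding protein gene IGF2BP3. They are 10 of 20007 protein-coding genes of GENCODE release 44 on hg38. All peaks over each gene body and 50 kb to each side were collected, which gave 1171 of the 411990 peaks in the 14 lists. IGFBP2 and IGFBP5 are neighbours and share sequence, so the genes lie in 9 separate stretches of together 1651 kb. The compared arms were cells given a control siRNA, named siNEG, and cells given siFLI1, an siRNA to FLI1 that served to deplete the fusion protein EWSR1::FLI1, both at 20 nM. The time between transfection and harvest is not given in the sources used here. Each arm had 2 libraries for the transcription factor ETS1, 2 for H3K27ac (acetylated lysine 27 of histone H3) and 2 for H3K4me3 (trimethylated lysine 4 of histone H3). A further H3K27ac library per arm, whose label names both ab4729 and the catalogue number of the other H3K27ac libraries, was kept apart and is called ab4729 here, although which antibody made it is in doubt. All groups come from the same cell line and the same siRNA pair, and nothing in the labels says that replicates were separate cultures.

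IGF1 and IGF2 bind the receptor tyrosine kinase IGF1R, which passes the signal through IRS1 to the PI3K and MAPK routes. The IGF binding proteins hold most secreted IGF and set how much of it reaches the receptor, and IGF2BP3 binds IGF2 and other transcripts. EWSR1::FLI1 drives Ewing sarcoma, in which IGF1R signalling is long studied, and IGFBP3 is known as a gene that the fusion lowers. The fusion binds runs of GGAA repeats, where it can create enhancers, and single ETS sites such as CCGGAA. H3K4me3 marks the promoters of active or poised genes, and H3K27ac marks active promoters and enhancers.

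The H3K4me3 lists held between 18344 and 19720 peaks each, the replicated H3K27ac lists between 60027 and 65501, and the ab4729 lists 32738 (siNEG) and 51663 (siFLI1). The ETS1 lists held 302 and 208 peaks in siNEG cells and 1633 and 2635 in siFLI1 cells. In siFLI1 cells the ETS1 pair was closer in summit height than independent libraries should be (chi-square divided by its degrees of freedom, 0.418 over 495 regions), that is, differed by less than the sampling noise. As a precaution the pair was counted as 1 sample. The depth of the libraries is not given in the lists, so a peak missing from a list was not detectable at that library's depth and q limit, which is not the same as absent. Of 12 genes known from Ewing sarcoma, 12 had a promoter H3K4me3 peak and 10 a promoter H3K27ac peak in both siNEG lists, within 1 kb of the canonical transcription start site. Markers of epithelium, muscle and endothelium had neither mark in both siNEG lists, and 1 of 4 blood markers had H3K27ac. The promoter of FLI1, the targeted gene, had H3K4me3 in all 4 lists and H3K27ac in none. The promoter of EWSR1, the other gene of the fusion, had both marks in all 4 lists. The lists hold no measure of transcript or protein, so how far the siRNA lowered its target was not measured in these files.

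Sequences from these genes and their flanks are shown first. The IGFBP3 and IRS1 promoters are the 250 bases before the RefSeq start site (GRCh38.p14), with the ETS core CCGGAA or its reverse complement TTCCGG in capitals. IGFBP3 (chr7:45921273-45921522, minus strand) is shown because its promoter carried H3K4me3 in siFLI1 lists alone. IRS1 (chr2:226799821-226800070, minus strand) is shown because it overlapped an ETS1 peak.
IGFBP3 promoter: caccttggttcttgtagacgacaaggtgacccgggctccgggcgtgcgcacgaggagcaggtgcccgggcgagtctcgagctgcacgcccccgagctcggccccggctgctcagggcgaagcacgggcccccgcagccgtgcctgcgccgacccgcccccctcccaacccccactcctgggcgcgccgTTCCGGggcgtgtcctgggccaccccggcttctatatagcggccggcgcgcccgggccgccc
IRS1 promoter: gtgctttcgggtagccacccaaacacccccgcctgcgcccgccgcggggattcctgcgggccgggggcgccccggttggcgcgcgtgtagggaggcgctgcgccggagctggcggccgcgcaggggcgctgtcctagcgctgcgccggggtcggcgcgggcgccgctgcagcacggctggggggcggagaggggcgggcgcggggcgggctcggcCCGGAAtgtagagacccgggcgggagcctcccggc
Each of these holds 1 such core, as do the IGFBP5 and IGFBP6 promoters, against 14.5% of the 35116 RefSeq promoters of the same length. The next pair are the 101 bases around the ETS1 summits at the promoters of IGF1R (chr15:98648181-98648281, plus strand) and IGF2BP3 (chr7:23471155-23471255, minus strand). They are in lower case throughout because neither holds GGAA or TTCC.
IGF1R ETS1 summit: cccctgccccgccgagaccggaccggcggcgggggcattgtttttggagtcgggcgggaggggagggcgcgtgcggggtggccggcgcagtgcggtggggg
IGF2BP3 ETS1 summit: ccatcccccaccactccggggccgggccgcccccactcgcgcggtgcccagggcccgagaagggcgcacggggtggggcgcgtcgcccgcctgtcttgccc
Runs of at least 4 GGAA or TTCC units, on the plus strand of hg38 and in capitals with 10 flanking bases, include the longest in the windows, a 14-unit run inside IGF1 (chr12:102415544-102415599). The longest in the IGF2 window had 8 units (chr11:2106699-2106730), and the longest in the IGFBP3 window had 5 (chr7:45909477-45909496).
IGF1 run: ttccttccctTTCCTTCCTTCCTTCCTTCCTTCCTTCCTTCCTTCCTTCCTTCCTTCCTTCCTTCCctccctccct
IGF2 run: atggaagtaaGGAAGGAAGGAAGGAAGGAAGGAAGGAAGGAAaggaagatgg
IGFBP3 run: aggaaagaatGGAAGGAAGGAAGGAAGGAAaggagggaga

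Summed over the windows, more of the H3K27ac difference lay in places with peaks in every list than in places with none in siNEG lists. This did not hold for every gene. The covered length, which is the summed length of a list's peaks in the windows with shared windows counted once, was 240.5 and 241.1 kb in the siNEG H3K27ac lists. It was 325 and 303 kb in the siFLI1 lists, so the groups did not overlap. The means were 241 ± 0.387 kb and 314 ± 15.4 kb (SD, n = 2 each), a difference of 73.2 kb (exact two-sided permutation test, p = 0.33, the smallest that 2 against 2 lists allow). In bulk chromatin, more cells with a mark and more of it per cell cannot be told apart. The siFLI1 lists also covered more of the whole genome, 67.4 against 60.8 Mb on average, and per Mb covered by each list the windows held 4.66 against 3.96 kb. The ab4729 lists covered 47.2 kb (siNEG) and 113 kb (siFLI1) of the windows, but also 15.4 and 25.5 Mb of the genome, so their order in a single window carries little information. Taken by gene, the siFLI1 lists covered more than both siNEG lists for 6 of the 9 genes with any H3K27ac, against 50% of the 16914 gene windows with any. They covered less for 1, IGF1, against 15.6% of those windows. With lengths per Mb covered by each list, the counts were 5 above and 2 below, against 39.6% and 23.2% of gene windows, as IGF1R overlapped and IGF2BP3 lay below. The median ratio of siFLI1 to siNEG was 1.56 over 8 genes and 1.20 over all gene windows. IGFBP2 and IGFBP5 count as 2 genes in these counts and in the median, although their windows share most of their H3K27ac regions.

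For H3K4me3 the covered length over the windows was 65.5 and 66.3 kb in siNEG lists and 70.6 and 72.7 kb in siFLI1 lists. The groups did not overlap, and the difference of 5.73 kb (exact permutation p = 0.33) was mostly the 4.01 kb of IGFBP3. The siFLI1 lists covered more for 4 of the 9 genes with any H3K4me3 (IGF1, IGFBP2, IGFBP5 and IGFBP3), against 14.7% of 16513 gene windows, and less for 1, IGF1R, against 49.4%. Here the siFLI1 lists covered less of the genome, 41.1 against 44 Mb on average, and per Mb covered the counts were 7 above and none below, against 25.3% and 31.7% of gene windows. IGFBP2 and IGFBP5 are counted as 2 genes although the same peaks make up their H3K4me3.

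Merging the 4 lists of an antibody wherever peaks shared a base gave regions. Gained regions are those found in both siFLI1 lists and absent from both siNEG lists, and lost regions are the reverse. Of the 278 H3K27ac regions in the windows, 19 were gained, or 6.83% against 8.19% of all merged regions, and 8 were lost, or 2.88% against 4.86%. All 4 lists shared 62, or 22.3% against 25.1%, and the other 189 were held by another mix of lists. Regions in all 4 lists made up 43.97 kb of the covered-length difference, gained regions 16.3 kb, and regions in 1 siFLI1 list alone 17.5 kb. Lost regions gave -4.43 kb and the remaining mixes 0.7525 kb. The balance differed by gene. In the same order as the first 3 values, IGFBP5 had 18.6, 1.80 and 2.09 kb, IGF1R 6.95, 4.065 and 5.21 kb, and IRS1 4.90, 6.62 and 2.54 kb. Of 23 H3K4me3 regions, 1 was gained, at IGFBP3 (background 2.17%), none was lost (background 2.83%) and 16 were in all 4 lists (background 62.6%). Of 11 ETS1 regions, 8 were gained, or 72.7% against 44% of all ETS1 regions, none was lost (background 0.0739%), and the other 3 were in siFLI1 replicate 2 alone. The gained ETS1 regions rest on 1 siFLI1 sample and on siNEG lists that were far shorter. With the 208 strongest peaks of each ETS1 list, 1 gained region was left.

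**Figure D1:**
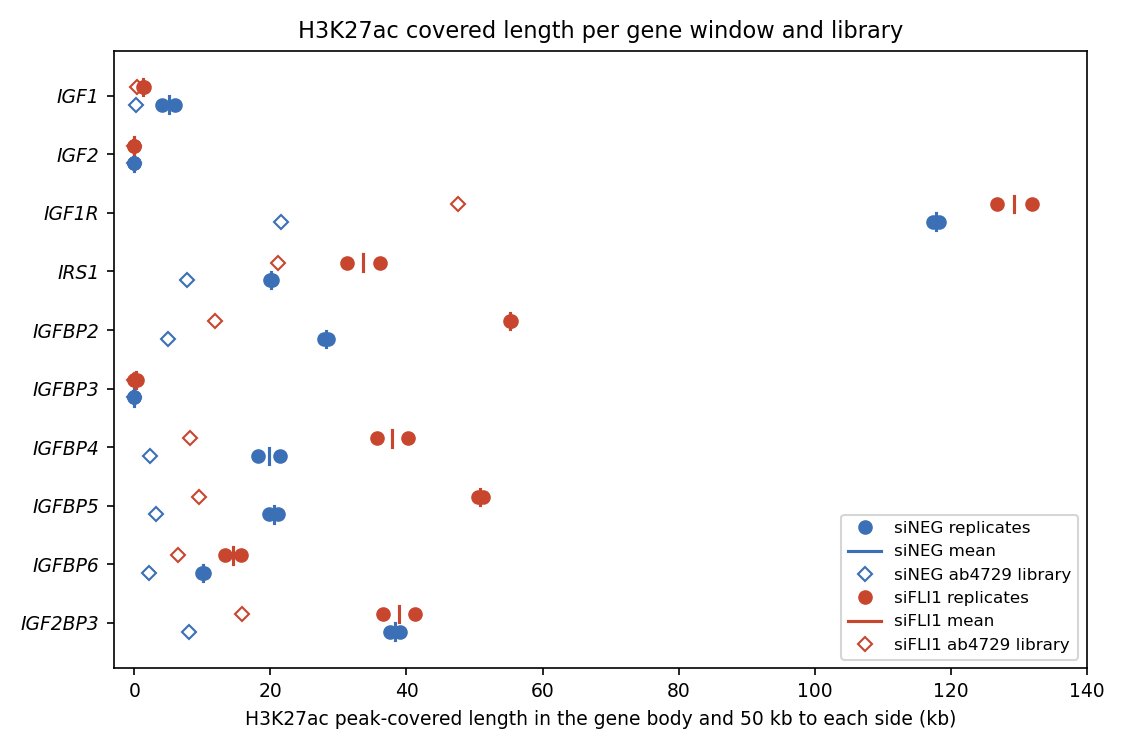
H3K27ac peak-covered length (kb, linear axis) in the window of each gene, for the siNEG (blue) and siFLI1 (red) lists. Filled points are single replicates, vertical ticks their means and open diamonds the ab4729 libraries. The siFLI1 points of IGFBP5 lie at 50.5 and 51.2 kb against 19.9 and 21.2 kb, and IGF1 lies the other way. The difference of the means changes sign for IGF1R and IGF2BP3 when lengths are scaled to the whole list.

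IGF1, the circulating and local growth factor, was the gene with less H3K27ac after FLI1 siRNA. Its window had 5.98 and 4.10 kb of H3K27ac in the siNEG lists and 1.38 and 1.30 kb in the siFLI1 lists. The groups did not overlap, with means of 5.04 ± 1.33 and 1.34 ± 0.0566 kb (SD, n = 2; exact permutation p = 0.33). The siFLI1 to siNEG ratio of 0.266 lay at percentile 0.844 of 15990 gene windows that had a ratio. The size of the difference depended on the window: with flanks of 100 kb in place of 50 kb the means were 5.04 and 3.43 kb, a difference of -1.62 in place of -3.70 kb. H3K4me3 went the other way, with 1.80 and 1.91 kb against 2.44 and 2.49 kb. The ab4729 lists had 0.284 kb (siNEG) and 0.441 kb (siFLI1), which is not the order of the replicated lists. Most of the difference was spread over 8 peaks held by single siNEG lists, with folds of 2.79 to 6.32. Of 12 H3K27ac regions, 1 was in all 4 lists, 1 was lost and 10 were held by other mixes.

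The lost IGF1 region, chr12:102474552-102475276, lies in an intron 3.38 kb from the nearest IGF1 start site. Its fold, which is the authors' ratio of the peak summit over local background, was 4.63 and 3.68 in the siNEG lists. At the canonical start site, H3K4me3 was in all 4 lists (chr12:102478038-102480574), with folds of 7.77 and 9.92 (siNEG) and 16.5 and 11.8 (siFLI1). H3K27ac within 1 kb of that site was in both siNEG lists and in siFLI1 replicate 1, with folds of 4.01, 4.35 and 5.00. Replicate 1 of both arms held chr12:102480070-102481159 there, and siNEG replicate 2 held chr12:102479522-102479805. The 14-unit GGAA run lay 261 bp from a region, chr12:102415861-102416732, which is 115 bp from another IGF1 start site. That region was held by siNEG replicate 1 (fold 3.90) and by the ab4729 siNEG list (fold 3.16), and by no siFLI1 list. It was not held by siNEG replicate 2 and so does not count as lost.

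IGF2, the fetal growth factor whose gene is imprinted, had no peak of any antibody in its window in any of the 14 lists. Of all gene windows, 15.5% had no H3K27ac and 17.5% no H3K4me3 in the 4 replicated lists. At the promoter, within 1 kb of the canonical start site, H3K27ac was in no list for 46.6% of all genes and H3K4me3 for 36.5%. The 2 kb around its canonical start site is rich in CpG, with an observed over expected ratio of 0.825, at percentile 88.3 of all genes. Its window held 3 GGAA runs, the longest shown above, and the H3K27ac region nearest to any of them was 166 kb away. Both ligand genes thus carried little or no H3K27ac in either arm, in contrast to the receptor and adaptor genes.

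IGF1R, the receptor, had the longest H3K27ac coverage of the 10 genes in kb, most of it inside the gene, which also has the longest window, 416 kb. As a share of the window, its siFLI1 lists reached 31.7% and 30.5%, below the 41.9% and 42.0% of IGFBP2 and the 40.9% and 41.5% of IGFBP5. Its window had 118 and 117 kb in the siNEG lists and 132 and 127 kb in the siFLI1 lists, and the groups did not overlap. The difference of 11.6 kb (exact permutation p = 0.33) turns to -0.0191 kb per Mb covered by each list. Within the gene body of 316 kb, peaks covered 36.8% and 36.3% in siNEG and 40.6% and 38.8% in siFLI1 lists. The ab4729 lists covered 21.5 and 47.6 kb of the window. The largest region, chr15:98849793-98908551, spans 58.8 kb of the gene, with its centre 231 kb downstream of the canonical start site, and covers an internal IGF1R start site. It was in all 4 lists, which covered 54.0 and 53.5 kb (siNEG) and 57.7 and 57.7 kb (siFLI1) of it. H3K4me3 was also listed inside it in all 4 lists, at chr15:98851672-98853766 with folds between 9.86 and 16.0.

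Other intronic IGF1R regions in all 4 lists differed between the arms in opposite directions. At chr15:98726093-98730325, the siNEG lists covered 2.42 and 2.14 kb and the siFLI1 lists 3.997 and 3.90 kb, and the authors' folds were 7.25 and 5.51 against 25.1 and 23.1. The ab4729 folds there were 6.04 and 8.68. At chr15:98940137-98945292, near the end of the gene, the covered lengths were 2.88 and 3.04 kb against 4.89 and 5.16 kb. At chr15:98796750-98802983 the folds were 43.5 and 30.8 in siNEG against 20.7 and 16.6 in siFLI1 lists, and 16.6 against 8.74 in the ab4729 lists, while the covered lengths overlapped. The fold depends on each library's background, so these values describe each list and were not tested between arms.

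In all, 7 H3K27ac regions were gained and 3 lost at IGF1R. The gained pair with the highest mean fold comprised chr15:98982780-98983502, in an intron of the neighbour PGPEP1L (5.36 and 6.03), and chr15:98953362-98955277, 567 bp from an internal IGF1R start site (4.63 and 4.74). The second was also in the ab4729 siFLI1 list (5.92) and not in its siNEG counterpart, which is the shorter list. The lost pair with the highest mean fold comprised chr15:98653017-98653630 (5.98 and 3.20) and chr15:98792344-98793268 (5.72 and 2.91), both intronic. The canonical promoter, chr15:98646901-98652907, had H3K27ac in all 6 lists, with folds between 9.98 and 15.1. Beside the 58.8 kb region and the gained one, 8 regions within 1 kb of internal IGF1R start sites were 0.275 to 1.61 kb long and held by mixed lists. Both siFLI1 lists and siNEG replicate 2 held chr15:98733654-98734894 and chr15:98951712-98953322. Both siNEG lists and siFLI1 replicate 2 held chr15:98735010-98736018, and replicate 1 of each arm held chr15:98917358-98918306. Single siFLI1 lists held chr15:98913069-98913343, chr15:98922680-98923114, chr15:98923657-98924064 and chr15:98925395-98925945.

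H3K4me3 at the IGF1R promoter, chr15:98645472-98653806, was broad, with 7.43 to 7.82 kb covered, in all 4 lists, with folds of 72.6 and 75.3 in siNEG and 60.4 and 48.4 in siFLI1 lists. Over the window, H3K4me3 covered 10.7 and 10.7 kb against 10.3 and 10.3 kb. IGF1R was the gene whose siFLI1 lists both covered less H3K4me3 than both siNEG lists, which 49.4% of all gene windows did. Per Mb covered by each list the difference was 0.00787 kb, with the opposite sign. ETS1 was listed at the promoter in siFLI1 cells alone, at chr15:98647570-98648355, with folds of 5.17 and 6.90. The region's summits lay 394 bp (replicate 1) and 308 bp (the stronger peak of replicate 2) upstream of the start site. Such a promoter ETS1 gain was listed for 5.23% of all genes.

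**Figure D2:**
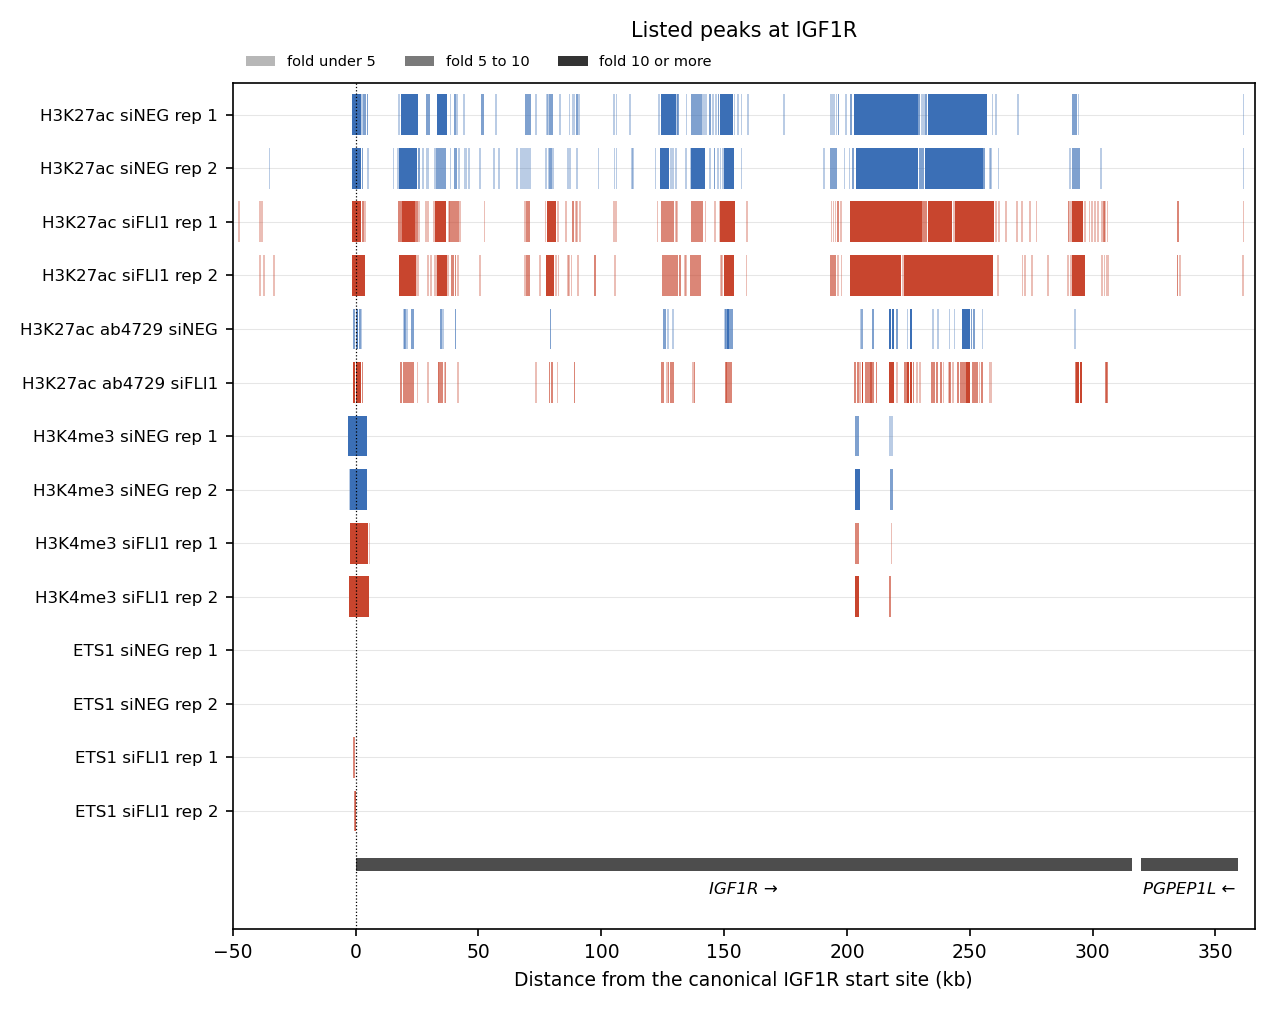
Listed peaks at IGF1R by library, against distance from its canonical start site (kb). Blue bars are siNEG and red bars siFLI1 peaks, darker with higher authors' fold, and grey bars are genes with arrows for their direction. The 58.8 kb H3K27ac region spans much of the second part of the gene in all 4 lists, and ETS1 bars appear at the promoter in siFLI1 lists alone.

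IRS1, the adaptor that links IGF1R and the insulin receptor to PI3K, had more H3K27ac along its gene in siFLI1 lists and the most ETS1 regions of the 10. H3K27ac covered 20.3 and 19.9 kb of its window in siNEG lists and 36.0 and 31.3 kb in siFLI1 lists. The groups did not overlap, with means of 20.1 ± 0.232 and 33.7 ± 3.36 kb (SD, n = 2; exact permutation p = 0.33). The ab4729 lists had 7.69 and 21.1 kb. The ratio of 1.67 lay at percentile 80.9 of gene windows. Within the gene body of 68.5 kb, siNEG peaks covered 19.2% and 20.2% and siFLI1 peaks 40.4% and 35.8%.

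IRS1 had 4 gained and no lost H3K27ac regions, and the gained ones made up 6.62 kb of its difference of 13.6 kb. The strongest was chr2:226780658-226783822, intronic, with its centre 17.6 kb downstream of the canonical start site and with folds of 11.1 and 9.92. Next was chr2:226758575-226761604, also intronic, with its centre 39.7 kb downstream and with folds of 9.24 and 4.43. Both were also in the ab4729 siFLI1 list, with folds of 6.11 and 6.43, and not in its siNEG counterpart, which is the shorter list. The promoter region, chr2:226788748-226801270, was in all 6 lists, with 10.9 and 10.7 kb covered in siNEG against 12.4 and 12.3 kb in siFLI1 lists. Its H3K4me3 counterpart, chr2:226790775-226801870, covered 11.01 and 11.1 kb in siNEG and 10.6 and 10.7 kb in siFLI1 lists. The window totals of H3K4me3 overlapped between arms.

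ETS1 was listed at 6 places within IRS1 and its promoter, all in siFLI1 lists. The promoter region chr2:226799877-226800292 had folds of 6.88 and 7.74, and the sequence shown above covers part of it. Its CCGGAA core lies outside that region, which holds none. A second promoter region, chr2:226799254-226799592, had folds of 5.63 and 5.71. Further downstream, chr2:226796843-226797612 lay over an exon (5.01 and 6.06) and chr2:226791646-226792058 in an intron 7.97 kb from the canonical start (6.18 and 8.19). The other regions, chr2:226798687-226798901 (4.08) and chr2:226795938-226796158 (3.86), were in siFLI1 replicate 2 alone. All 6 lie inside the H3K4me3 region that was in all 4 lists.

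**Figure D3:**
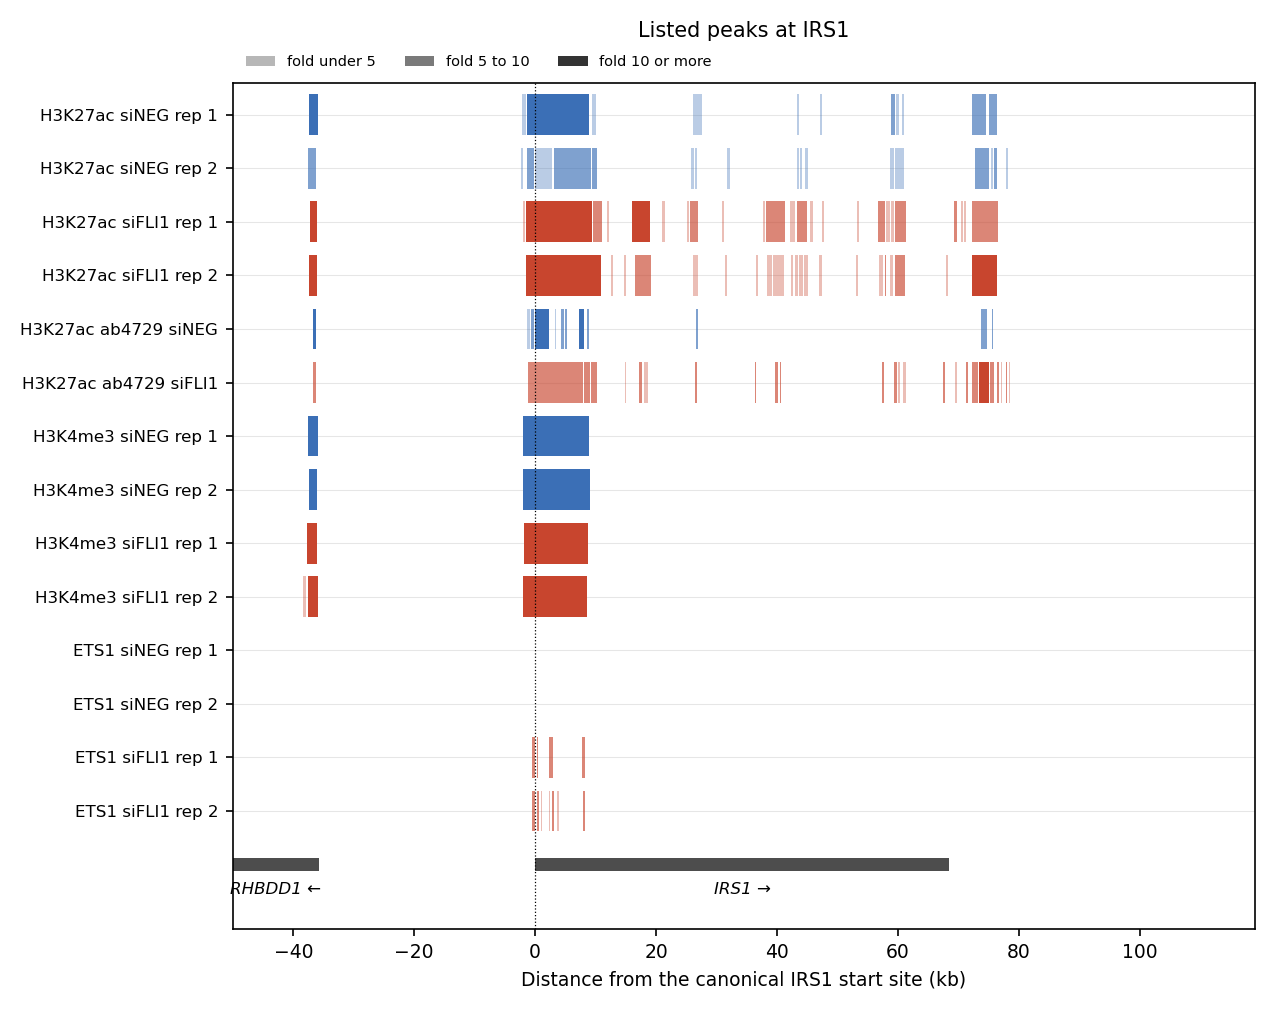
Listed peaks at IRS1 by library, against distance from its canonical start site (kb), with colours and shading as in the map of IGF1R. Red H3K27ac bars near 17.6 and 39.7 kb have no blue counterpart, and the ETS1 bars lie at its promoter and in the first part of the gene, in siFLI1 lists.

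IGFBP3, the main carrier of IGF in serum, was the gene of the 10 whose promoter gained H3K4me3. The region chr7:45917813-45921852 covered 3.99 kb in siFLI1 replicate 1 and 4.04 kb in replicate 2, with folds of 31.5 and 37.2. No siNEG list held an H3K4me3 peak anywhere in the window, so the groups did not overlap (exact permutation p = 0.33). The folds stood at percentiles 55.9 and 61.0 of their own lists, so the peak was of middle rank there. The region spans the start site and the promoter sequence shown above. A promoter gain of H3K4me3 was listed for 187 of 20007 genes, or 0.935%.

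This promoter had H3K27ac in none of the 6 lists, and the gene body held none either. A single H3K27ac peak of 0.368 kb lay elsewhere in the window, in siFLI1 replicate 1. Genes with a gained promoter H3K4me3 and no promoter H3K27ac numbered 145, or 0.725% of all genes, so most of the 187 genes were of this kind. No ETS1 peak lay in the window. The window held 2 GGAA runs, of 4 and 5 units, 37.2 and 11.8 kb from the start site, and the nearest H3K27ac regions were 87.0 and 61.6 kb from them. The CpG observed over expected ratio of the 2 kb around the start site was 0.916, at percentile 97.5 of all genes.

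The 5 protein-coding genes outside the window whose pattern over the 14 lists was most like that of IGFBP3 were COLEC12, DRD2, SORBS2, LGR6 and IGSF11. Likeness was Pearson's r of the log2(1 + bp covered) within 2 kb of the canonical start site, over 13408 genes with any coverage. All had r of at least 0.999999, because every one had H3K4me3 in both siFLI1 lists and nothing in the other 12. SOX3, ZBTB8B and the gene listed only as ENSG00000254553 reached the same r as the last of them at this precision. In COLEC12 the siFLI1 H3K4me3 peaks covered 1695 and 1738 bp, in DRD2 1187 and 1196 bp and in SORBS2 1735 and 1747 bp, against 2526 and 2581 bp at IGFBP3. The 14 lists come from the same cell line and the pattern is of the on and off kind, so the order among these genes carries little information.

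**Figure D4:**
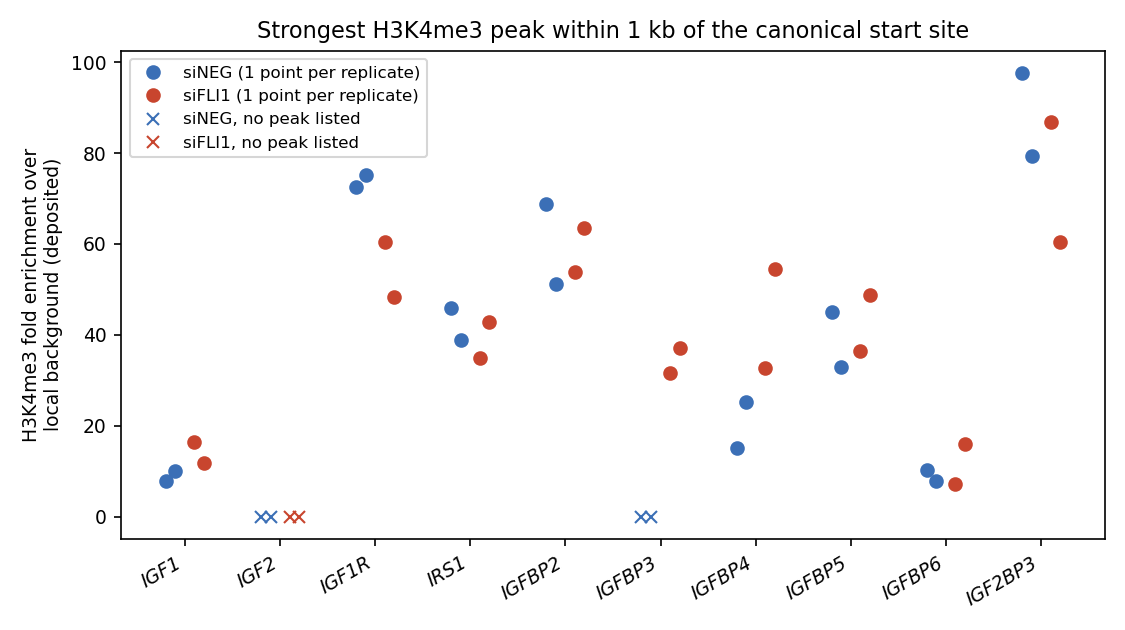
Authors' fold enrichment of the strongest H3K4me3 peak within 1 kb of the canonical start site of each gene, by list. Blue points are siNEG and red points siFLI1 replicates, and crosses at 0 mark lists with no peak. IGFBP3 has 31.5 and 37.2 in siFLI1 lists and no peak in siNEG lists, and IGF2 has none at all.

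IGFBP2 and IGFBP5 lie tail to tail on chromosome 2, and IGFBP5 had the highest ratio of siFLI1 to siNEG H3K27ac coverage among the 8 genes with a ratio. IGFBP5 is a binding protein that attaches to extracellular matrix and bone, and IGFBP2 is abundant in fetal and tumour tissue. The IGFBP5 window had 19.9 and 21.2 kb of H3K27ac in siNEG lists and 50.5 and 51.2 kb in siFLI1 lists. The means were 20.5 ± 0.936 and 50.9 ± 0.486 kb (SD, n = 2; exact permutation p = 0.33), a ratio of 2.48 at percentile 92.9 of gene windows. The IGFBP2 window, which holds the IGFBP5 gene too, had 28.5 and 27.9 kb against 55.2 and 55.3 kb. The ab4729 lists had 3.24 and 9.57 kb at IGFBP5 and 4.90 and 11.8 kb at IGFBP2.

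The gene bodies separate the neighbours. Across the 23.4 kb of IGFBP5, peaks covered 22.5% and 20.6% in siNEG lists and 91.6% and 85.3% in siFLI1 lists. Across the 31.6 kb of IGFBP2, they covered 34.0% and 36.9% against 59.2% and 64.2%. In the ab4729 lists the covered lengths were 0 and 1.85 kb in IGFBP5 and 2.37 and 5.36 kb in IGFBP2. Both genes thus showed the same order, with the wider gap at IGFBP5.

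The wider coverage lay largely in regions already listed in both siNEG lists, which made up 18.6 kb of the difference at IGFBP5. The IGFBP5 promoter region, chr2:216686516-216697521, covered 4.18 and 4.15 kb in siNEG lists and 10.3 and 9.65 kb in siFLI1 lists. A region over the end of IGFBP2, chr2:216655434-216661552, covered 2.80 and 2.12 kb against 5.11 and 5.89 kb. The IGFBP2 promoter region, chr2:216633455-216639169, covered 4.69 and 4.71 kb against 5.72 and 5.40 kb. Upstream of IGFBP2, chr2:216617007-216622298 had the reverse order, with 5.09 and 4.35 kb in siNEG against 4.08 and 3.80 kb in siFLI1 lists. The ab4729 lists held the IGFBP5 promoter region in siFLI1 (fold 6.11) and not in siNEG cells, whose list is the shorter.

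Between them the neighbours had 1 gained region and none lost. It was chr2:216699137-216701343, intergenic and 3.59 kb upstream of IGFBP5, with folds of 9.32 and 9.90 and with 4.82 in the ab4729 siFLI1 list. H3K4me3 marked both promoters in all 4 lists, at chr2:216631896-216637882 (IGFBP2) and chr2:216689459-216695880 (IGFBP5). At IGFBP5 the H3K4me3 region covered 4.92 and 4.73 kb in siNEG and 6.10 and 6.21 kb in siFLI1 lists, and at IGFBP2 the H3K4me3 lengths overlapped. A short H3K27ac region near an internal IGFBP2 start site, chr2:216661689-216662092, was in siFLI1 replicate 1 alone. A short ETS1 peak, chr2:216693402-216693556, lay in an IGFBP5 intron in siFLI1 replicate 2 alone, with a fold of 5.78.

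**Figure D5:**
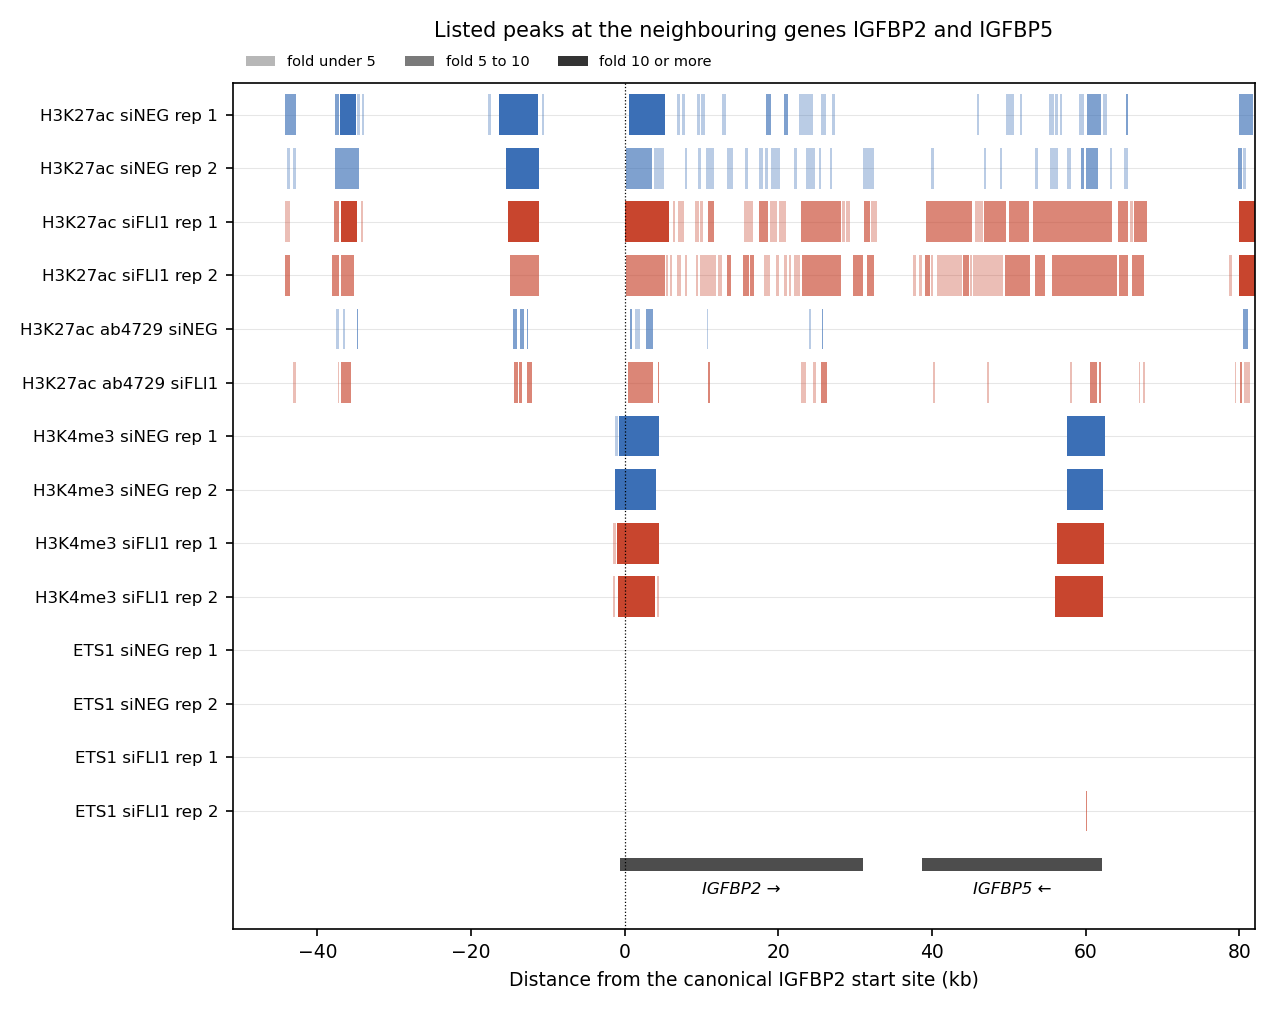
Listed peaks at IGFBP2 and IGFBP5 by library, against distance from the canonical IGFBP2 start site (kb), with colours and shading as in the map of IGF1R. The red H3K27ac bars fill most of the IGFBP5 gene, 91.6% and 85.3% of its length, where the blue bars cover 22.5% and 20.6%.

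IGFBP4, which the protease PAPPA cleaves to release IGF, had 18.1 and 21.4 kb of H3K27ac in its window in siNEG lists and 40.2 and 35.6 kb in siFLI1 lists. The groups did not overlap (ratio 1.92; exact permutation p = 0.33), and the ab4729 lists had 2.33 and 8.19 kb. Of 42 regions, 5 were gained and 1 lost. The gained pair with the highest mean fold lay in an intron of the neighbour TOP2A, chr17:40412774-40413563 (5.00 and 4.16), and between genes at chr17:40462379-40462810 (3.62 and 5.49). The lost region, chr17:40473174-40473705, was intergenic (4.60 and 3.23). Within the IGFBP4 gene itself, peaks covered 35.8% and 48.6% in siNEG against 74.7% and 60.4% in siFLI1 lists.

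The IGFBP4 promoter had H3K4me3 in all 4 lists, with folds of 15.1 and 25.2 in siNEG and 32.8 and 54.4 in siFLI1 lists. That region, chr17:40442422-40447481, covered 3.29 and 3.85 kb against 4.92 and 4.72 kb. The H3K27ac region at the start site, chr17:40442921-40443905, was missing from siNEG replicate 1, and the next one, chr17:40444050-40446056, was in all 4 lists. An ETS1 region gained in the window, chr17:40485886-40486162, lay in an intron of TNS4, 42.6 kb from the IGFBP4 start site, with folds of 5.96 and 9.19. The whole-window H3K4me3 lengths overlapped between arms.

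IGFBP6, a binding protein that prefers IGF2, had 10.3 and 9.87 kb of H3K27ac in siNEG and 15.7 and 13.4 kb in siFLI1 lists (ratio 1.44; exact permutation p = 0.33). The ab4729 lists had 2.09 and 6.44 kb. Its promoter region, chr12:53096876-53099538, covered 1.38 and 1.39 kb against 2.65 and 2.56 kb, with folds of 6.63 and 5.23 against 10.9 and 16.2. H3K4me3 there (chr12:53096893-53099435) covered 1.23 and 0.901 kb in siNEG and 1.92 and 2.54 kb in siFLI1 lists, with overlapping folds. The gained H3K27ac region, chr12:53067445-53068473, lay in an intron of SPRYD3 (4.45 and 3.57), and the lost one, chr12:53050683-53051326, at a TNS2 start site (3.75 and 4.89). A gained ETS1 region, chr12:53079182-53079547, lay at the SPRYD3 promoter, 18.3 kb from the middle of the region to the IGFBP6 start site, with folds of 5.17 and 5.65.

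IGF2BP3, which is widely expressed in fetal tissue and in tumours, had nearly the same histone marks in both arms and the strongest ETS1 peak of the 10 genes. H3K27ac covered 37.6 and 39.1 kb of its window in siNEG lists and 41.2 and 36.6 kb in siFLI1 lists, which overlap (exact permutation p = 1). The ab4729 lists had 8.07 and 15.8 kb. The promoter region, chr7:23463485-23475927, was in all 6 lists, with folds of 22.1 and 18.7 in siNEG and 24.3 and 20.3 in siFLI1 lists. H3K4me3 there spanned 13.8 kb, chr7:23464164-23477980, the widest of the 10 genes. Its folds of 97.6 and 79.4 in siNEG and 86.9 and 60.4 in siFLI1 lists overlapped. A further H3K27ac region over an internal start site, chr7:23341824-23351991, covered 9.30 and 8.99 kb against 9.05 and 8.25 kb. A shorter one at another internal start site, chr7:23430449-23431770, was also in all 4 lists, with 0.673 and 0.706 kb against 0.586 and 1.13 kb. Near further internal start sites, chr7:23432183-23433000 was in replicate 1 of both arms, chr7:23316738-23317099 in siNEG replicate 1 and chr7:23393698-23393972 in siFLI1 replicate 2. A short H3K4me3 region, chr7:23347405-23347679, was in siFLI1 replicate 1 alone.

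In the IGF2BP3 window 1 H3K27ac region was gained, chr7:23447518-23448805 (6.03 and 4.04), and 2 were lost, chr7:23429116-23429926 (3.86 and 2.77) and chr7:23338955-23339362 (3.31 and 3.29), all intronic. The ETS1 region chr7:23470699-23471484, just upstream of the start site, had folds of 10.0 and 14.6, at percentiles 92.2 and 96.5 of the siFLI1 lists. Summit heights estimated under assumed peak-caller formulas were 31 and 35 tags, against 17 to 21 at the strongest IGF1R and IRS1 promoter peaks. This was also the gained ETS1 region that was left when each list was held to its 208 strongest peaks.

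Over the promoters of the 10 genes, ETS1 was gained at 3 (IGF1R, IRS1 and IGF2BP3), against 5.23% of all genes, and in no list at the other 7 (88.6%). It was lost or in all 4 lists at none (0.01% and 0.625%). In the windows, ETS1 was gained for 5 genes (15.6% of all genes) and lost for none (0.0200%), and H3K4me3 was gained for 1 (5.12%) and lost for none (9.41%). H3K4me3 was in all 4 lists at 8 of the 10 (60.2% of all genes), gained at IGFBP3 (0.935%), lost at none (0.195%) and in no list at IGF2. H3K27ac was in all 4 lists at 6 (41.9% of all genes), in none at IGF2 and IGFBP3 (46.6%), mixed at IGF1 and IGFBP4, and gained or lost at no promoter (1.72% and 0.530%). The core CCGGAA, on either strand, lay within 50 bp of the summit in 0 of the 11 ETS1 regions, against 9.75% of all gained and 10.2% of all ETS1 regions. These letters stood elsewhere in the IGF1R region and in 2 of the IRS1 regions.

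GGAA runs of at least 4 units were found in the windows of 5 genes, IGF1, IGF2, IGFBP3, IGFBP4 and IGFBP5, against 44.1% of all gene windows. In all 8 runs were found, and the 14-unit run of IGF1 was the longest. Beside those shown, the IGF2 window held runs at chr11:2106471-2106494 and chr11:2106523-2106538 and the IGFBP3 window at chr7:45884028-45884043. The IGFBP4 run lay at chr17:40479140-40479159 and the IGFBP5 run at chr2:216733556-216733571, 1.58 and 1.14 kb from the nearest H3K27ac region. Of the 278 H3K27ac regions, 1 had a run within 1 kb of its centre, the IGF1 region already described, against 1.87% of all regions. None of the 8 lost regions had such a run, against 11.3% of all lost regions, and none of the 19 gained ones had, against 0.620%.

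A list of 30 further genes taken for the pathway comprised other receptors, ligands and binding proteins, and the IGFBP protease PAPPA and its regulators. It also held genes from SHC1 to MTOR, most of them signalling genes. Among these, PDK1 is the symbol of a pyruvate dehydrogenase kinase. Its promoter H3K4me3 and its gained H3K27ac region are in the counts that follow. H3K4me3 was in all 4 lists at 23 of the 30 promoters, against 60.2% of all genes, and gained or lost at none (0.935% and 0.195%). H3K27ac was in all 4 lists at 15 (41.9%), lost at none (0.530%) and gained at 1 (1.72%), FOXO1, a transcription factor that the pathway restrains. ETS1 was gained at 4, against 5.23% of all genes, among them the promoters of IGF2BP1, PIK3CA and FOXO3, and lost at none. In the wider windows, 16 of the 30 genes had a gained and 12 a lost H3K27ac region, against 38.0% and 22.9% of all genes, and among the 10 described genes the counts were 7 and 5. Those 7 include IGFBP2 and IGFBP5, which share 1 gained region. The 30 windows held 427 H3K27ac regions, of which 42 were gained, or 9.84% against 8.19% of all merged regions, and 26 lost, or 6.09% against 4.86%. The most gained regions were in the windows of TSC2 (7 of 37, with 1 lost), IGFALS (5 of 21) and PIK3R1 (5 of 12), the last 2 with none lost. The most lost were in those of IGF2BP1, the paralogue of IGF2BP3 (6 of 33, with none gained), and PAPPA (5 of 45, with 2 gained). For H3K4me3, 3 genes had a gained and 3 a lost region in the window, against 5.12% and 9.41% of all genes. The gained region of the IGFBP1 window is the IGFBP3 promoter region described above.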

How the data were processed

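The labels describe ChIP-seq of TC-32 cells: formaldehyde crosslinking, enzymatic digestion, sonication and immunoprecipitation. Antibodies were named in the labels for ETS1, H3K27ac and H3K4me3. The submitters' processing notes name cutadapt 4.4, BWA 0.7.17, Picard 2.17.11 and MACS2 2.1.1, and the builds GRCh38, hg38 and dm6, with no role or order. The control library and peak limits are not given in the sources used here. The 14 deposited lists were made 1 per library, and 8 input samples had no list analysed here. The deposited fold column is the authors' ratio of a summit over local background. The deposited −log10 p-value and −log10 q-value columns are the authors' values per peak, with a lowest −log10 q of 2.01 to 2.55, and the deposited score column was not used. Antibody efficiency moves how many peaks pass, so presence in a list is not occupancy.

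Python 3.11.15 and numpy 2.4.6 merged lists (at least 1 shared bp), classed regions, and measured covered length on hg38 (1-based, GENCODE 44). Merging and classing were tested on simulated lists. Covered lengths were compared by exact permutation tests of 2 against 2 lists. Each p-value is the share of relabellings whose difference of means was at least as large as that seen. The spread between libraries may be technical. Single regions had no test. Summit heights of siFLI1 ETS1 lists were recovered under assumed MACS2 formulas (99.97% whole), and peak names in the list of replicate 1 carry the number 2. Replicates of the other groups were not compared this way. Alternatives changed the overlap, q limit, number of peaks, window, scaling and lists. All 10 genes are described. For each, regions at its start sites, the 2 gained and 2 lost regions with the highest mean fold, ETS1 regions and GGAA runs of at least 4 units are named, and other regions named were chosen after their values were seen. The genes, lists and rules were chosen with earlier results of these data known.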

Additional observations from a re-analysis of the deposited data

How the results depend on the processing

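Of 259 alternative values for 26 results, 16 differences in covered length changed sign and 22 counts of regions moved by over 1.5 times, or to or from 0. The other 221 did neither. The number of gained H3K27ac regions, 19, was 11 at a −log10 q of at least 5, 9 when absence meant no peak within 1 kb, 12 with 10 kb flanks, 29 with 100 kb flanks and 5 with the ab4729 list added to each arm. Lost H3K27ac regions, 8, numbered 3 at that q limit, 4 with absence within 1 kb and 0 with ab4729. Leaving out 1 list at a time gave 30 to 82 gained and 12 to 52 lost H3K27ac regions, 1 to 4 gained and 0 to 2 lost H3K4me3 regions, and 8 to 13 gained ETS1 regions. The gained counts were highest without a siFLI1 list, 82 without replicate 2, and the lost counts without a siNEG list, 52 without replicate 1, since fewer lists had to hold a region. Requiring 50% overlap gave 2 gained H3K4me3 regions, the second beside the IGFBP2 promoter, and equal numbers of peaks gave 1 gained ETS1 region. The covered lengths over all windows kept their sign in every alternative run, between 57.9 and 92.8 kb for H3K27ac and 4.65 and 7.504 kb for H3K4me3 in plain kb.

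Signs changed in single windows, mostly for small differences but also for the 11.6 kb of H3K27ac at IGF1R. Per Mb covered by the list, H3K27ac gave -0.0191 kb at IGF1R and -0.0549 at IGF2BP3, and H3K4me3 gave 0.00787 at IGF1R, 0.0185 at IRS1 and 0.0131 at IGF2BP3. Equal numbers of peaks gave -0.098 kb of H3K27ac at IGF2BP3. With 100 kb flanks, H3K4me3 gave 0.1225 kb at IRS1 and -0.495 at IGFBP6. Leaving out 1 list gave -1.768 to 2.897 kb for H3K27ac at IGF2BP3, and for H3K4me3 -0.3275 to 0.2195 at IRS1, -0.443 to 1.439 at IGFBP4, -0.198 to 0.345 at IGFBP6 and -1.1875 to 0.0365 at IGF2BP3. The cause was not tested. With the replicate number as a block, the differences stayed 73.2 and 5.73 kb with an exact sign-flip p of 0.5, the smallest that 2 pairs allow. Same-numbered lists did not deviate together (r = 0.010 and 0.0048 across gene windows, which are not independent), and the labels give no shared source. Library depth is not given in the lists and limits what a missing peak shows.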
